A study of Mus musculus with 3 samples.

Results

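The genes described here are 44 components of the DNA replication machinery, chosen by name from a list of origin licensing, helicase, clamp, clamp loader, polymerase and fork genes, out of 50600 annotated genes in the count tables. All 44 were found by symbol. They were measured by RNA sequencing in 3 libraries of mouse regulatory T cells (Treg, CD4 T cells that restrain immune responses), primary cells of strain C57BL/6NJ, numbered biological replicates 2, 3 and 4. The file headers add that the cells had been activated for 16 hours, and the linked culture protocol is, by its name, for CD4 T cell differentiation. The 3 libraries form 1 group and carry no other treatment label, so the data allow comparisons between genes within a library and between libraries. All 3 carry 1 donor identifier, with sex not collected and age unknown, and the labels do not say whether separate animals were used.

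Replication is prepared in G1, when the origin recognition complex (ORC) marks origins and, with Cdc6 and Cdt1, loads the Mcm2 to Mcm7 helicase as an inactive ring. In S phase the kinase Cdc7 with Dbf4 and the factors Cdc45, GINS and Mcm10 switch that ring on, and primase, polymerases, the sliding clamp PCNA and its loader RFC copy the strands behind it. Many of these genes are classical targets of E2F transcription factors, and T cells leaving quiescence are known to build up the helicase before their first S phase.

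Total assigned fragments were 41222058, 47665060 and 99097524 in replicates 2, 3 and 4. The Treg markers were present, with Foxp3 at 80.9 ± 3.97, Il2ra at 658 ± 23.3, Ctla4 at 351 ± 37.5, Cd3e at 212 ± 6.65 and Cd4 at 591 ± 17.9 TPM (SD, n = 3). TPM are counts divided by exon length and scaled to a total of 1000000 in each library. Markers of other cells were low: 4 B cell genes summed to 4.19, 8.36 and 4.71 TPM, 4 monocyte or macrophage genes to 0.205, 0.177 and 0.0527, and 4 erythroid genes to 0.321, 0.22 and 0.894. Lyz2, Csf1r, Hbb-bs and Alas2 had no fragment in any library, where 3 fragments are worth 0.0728 CPM (counts on the same scale without the length) in the shallowest. The 4 CD8 T cell genes summed to 28.8, 29.2 and 24.8 TPM, nearly all from Cd8b1. The libraries stood apart in sex-linked genes, with Xist at 126, 0.331 and 36.1 TPM and the Y-linked Ddx3y at 0.126, 39.3 and 28.4 TPM in replicates 2, 3 and 4. The part of these differences in the results below was not tested.

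Every replication gene was expressed. All 44 reached 10 TPM in every library, against 34.8% of 21764 protein-coding genes, and 22 of 44 reached 100 TPM, against 8.80%. At 1 TPM the counts were 44 of 44 and 45.6%. The median was 107 TPM, with the highest gene, Mcm3, 46.3 times the lowest by exon length, Dbf4. With coding transcript lengths Mcm3 was still highest (752 TPM) and Gins3 was lowest (18.4). Together the 44 genes took 0.907%, 0.927% and 0.929% of fragments in replicates 2, 3 and 4 (95% Wilson intervals 0.904% to 0.91%, 0.924% to 0.929% and 0.927% to 0.931%, for counting error only). No gene rested on fewer than 841 fragments in a library. In bulk RNA, a larger share of cycling cells and more transcript per cycling cell cannot be told apart.

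**Figure D1:**
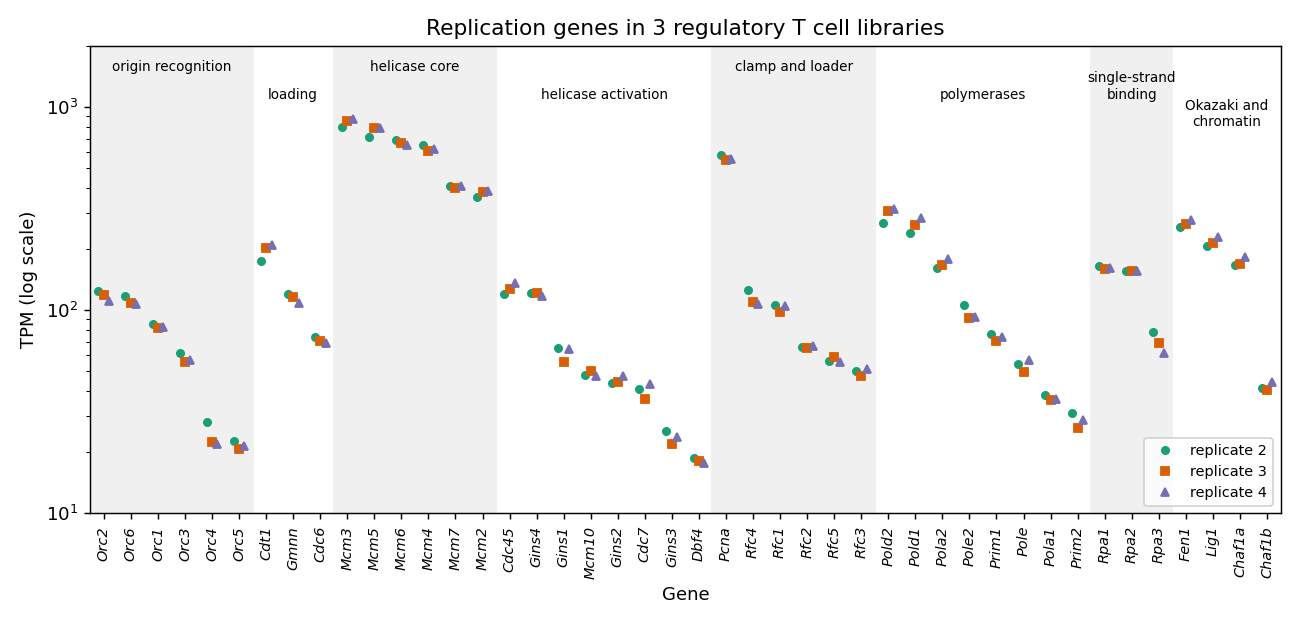
TPM (log axis) of each of the 44 genes in replicates 2 (circles), 3 (squares) and 4 (triangles), grouped by role and ordered by mean within a role; each point is 1 library. The 6 helicase subunits and Pcna lie above all other genes, and the 3 points of a gene lie close together relative to the distances between genes.

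The helicase core was the most abundant group, with a median of 647 TPM. Mcm3 (chromosome 1, 20802968 to 20820312, mm10) led all 44 genes at 801, 854 and 869 TPM in replicates 2, 3 and 4. Mcm5 followed at 761 ± 44.2 TPM, Mcm6 at 668 ± 17.6, Mcm4 at 627 ± 19.3 and Mcm7 at 405 ± 5.78 (SD, n = 3). Mcm2 (chromosome 6, 88883474 to 88898780) was lowest of the 6 at 361, 383 and 388 TPM. The ring holds 1 copy of each subunit, and the 6 transcripts spanned 2.23-fold. No neighbouring pair in this order overlapped between libraries. The order nevertheless depended on the length used: per base of the longest coding transcript, Mcm2 stood at 562 TPM, above Mcm6 (517), Mcm4 (453) and Mcm7 (437), with Mcm3 (752) and Mcm5 (649) still the highest of the 6. Mcm7 also shares 172 of its 4426 exon bases with the microRNA genes Mir25 and Mir93 on the same strand, and fragments that touch both genes are left out by the counting program's defaults.

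Promoters were examined because E2F and CCAAT elements are the known control elements of this gene class. RefSeq promoter windows on GRCm38.p6, of 250 bases before and 50 after the start, were at hand for 36 of the 44 genes (the first listed window of each), the others being Gmnn, Mcm4, Gins1, Gins2, Gins4, Rfc2, Prim2 and Pole. An E2F core, searched on both strands in the 4 forms TTCCCGC as well as TTGGCGC and also TTCGCGC and finally TTGCCGC, was found in 21 of 36 windows (58.3%), against 9.69% of the windows of all 27025 genes and 12.2% of those of 17491 protein-coding genes. Forms on opposite strands can overlap, and each stretch of TTGGCGCGAA counts as 2 matches. An E2F core on the reverse strand can also overlap a CCAAT match. CCAAT stood in 21 of 36 (58.3%, against 37.9% of all windows) and the GC box GGGCGG in 27 (75.0%, against 35.9%). The cell cycle homology element TTTGAA, linked to mitotic genes, stood in 6 (16.7%, against 18.1%), and the E-box CACGTG in 5 (13.9%, against 7.24%). GC-rich letters turn up by base composition too: among protein-coding windows the GC box share was 46.3%. These matches are letters and not shown sites.

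Below are the 180 bases before the start for 4 genes with E2F cores there and for 2 genes with none in their window, written 5′ to 3′ on the gene's strand with E2F cores in capitals. They are examples of how such letters are arranged. By exon length, only Pola1 among them lay below the median of the 44 genes (107 TPM), so they do not contrast abundant with scarce members.
Mcm5 (chr8:75109329-75109508, plus strand): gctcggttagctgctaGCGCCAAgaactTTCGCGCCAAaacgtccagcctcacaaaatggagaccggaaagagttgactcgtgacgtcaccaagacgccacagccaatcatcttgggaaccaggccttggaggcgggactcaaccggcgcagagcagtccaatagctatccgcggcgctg
Mcm6 (chr1:128359706-128359885, minus strand): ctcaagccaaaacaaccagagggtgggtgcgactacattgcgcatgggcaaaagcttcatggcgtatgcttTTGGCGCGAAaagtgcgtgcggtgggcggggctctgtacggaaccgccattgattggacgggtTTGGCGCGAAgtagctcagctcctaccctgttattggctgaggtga
Pola1 (chrX:93632156-93632335, minus strand): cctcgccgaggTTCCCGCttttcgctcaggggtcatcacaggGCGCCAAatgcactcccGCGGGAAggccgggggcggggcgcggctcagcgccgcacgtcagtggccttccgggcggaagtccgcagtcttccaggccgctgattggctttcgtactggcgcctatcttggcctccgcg
Chaf1a (chr17:56040236-56040415, plus strand): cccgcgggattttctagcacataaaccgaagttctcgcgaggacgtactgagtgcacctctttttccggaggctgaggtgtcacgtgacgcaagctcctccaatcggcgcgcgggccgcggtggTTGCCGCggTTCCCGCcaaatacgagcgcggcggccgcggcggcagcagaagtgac
Mcm2 (chr6:88898781-88898960, minus strand): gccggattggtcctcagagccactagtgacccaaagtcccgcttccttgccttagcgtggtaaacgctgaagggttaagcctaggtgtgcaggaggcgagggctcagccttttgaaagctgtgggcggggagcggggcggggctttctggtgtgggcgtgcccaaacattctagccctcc
Orc2 (chr1:58505110-58505289, minus strand): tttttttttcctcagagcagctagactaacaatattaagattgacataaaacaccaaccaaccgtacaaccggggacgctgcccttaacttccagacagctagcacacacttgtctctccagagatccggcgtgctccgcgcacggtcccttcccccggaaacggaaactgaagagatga

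Mcm6 carried 2 separate TTGGCGCGAA stretches and Mcm5 3 matches further upstream, and these genes stood at 668 and 761 TPM. Pola1, the catalytic polymerase alpha gene, had as many matches in this stretch as Mcm5 but a level of 37.05 ± 1.21 TPM. Mcm2 and Orc2 held none of these letters in the window and stood at 377 and 118 TPM. Over the 36 windows, the 21 genes with an E2F core had a median of 96.7 TPM and the 15 without one 128 TPM, the lower median being that of the genes with a core. The bases just after the RefSeq start were found in a GENCODE transcript of the gene for only 26 of the 36. The windows of Fen1, Lig1 and Rpa1, without a core, and of Mcm5, with 3, lie wholly outside the gene as deposited. How the placing of windows affects this split was not tested. Several cores lie after the start, as in Mcm3, whose 3 begin at bases 20, 40 and 43.

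**Figure D2:**
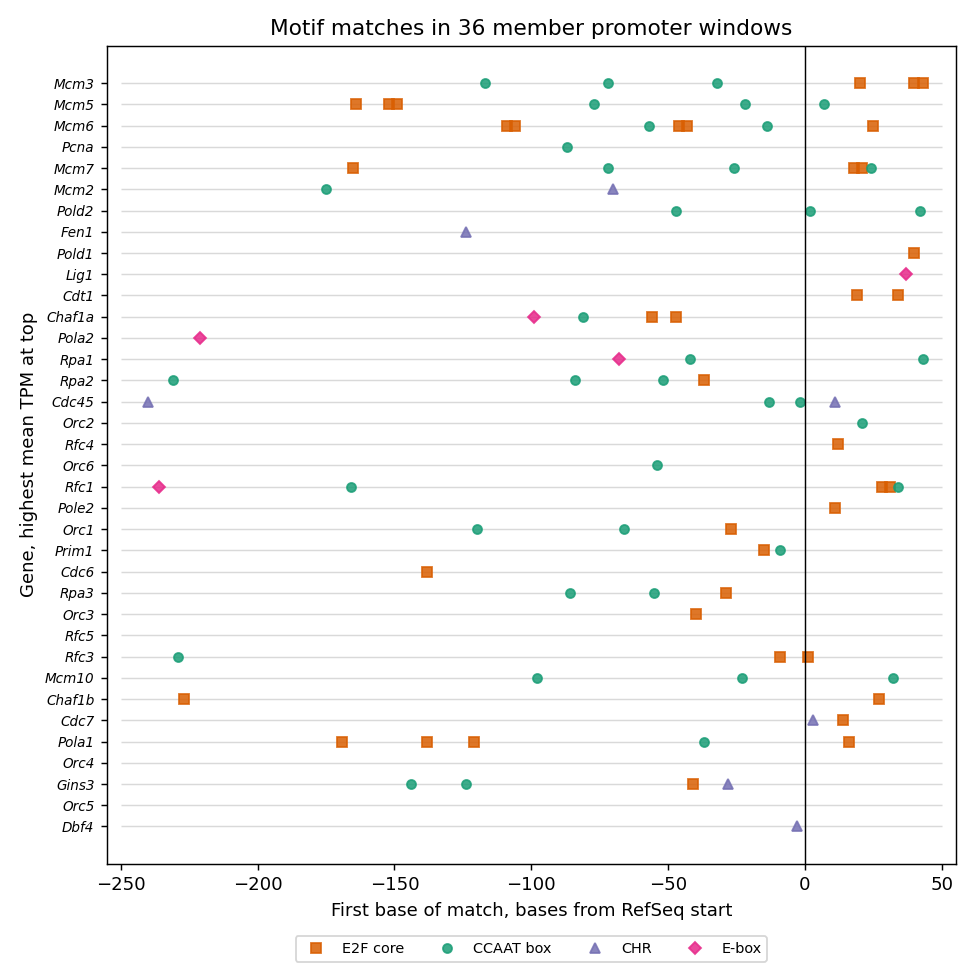
First base of each motif match relative to the RefSeq start (x axis, bases) in the promoter windows of 36 genes (y axis, highest mean TPM at the top); squares are E2F cores, circles CCAAT, triangles TTTGAA and diamonds CACGTG. E2F cores occur both in abundant genes such as Mcm3 and Mcm6 and in scarce ones such as Pola1 and Gins3.

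Origin recognition genes were far below the helicase they load. Orc2 (chromosome 1, 58462771 to 58505109) was highest by exon length at 125, 119 and 111 TPM, and Orc6, the smallest subunit, stood close by at 111 ± 5.84. Their ranges over libraries overlapped. Orc1, the ATPase subunit whose protein is known to be removed after G1, was at 85.6, 81.4 and 82.75 TPM, and Orc3 was at 57.8 ± 3.14. Orc4 was at 28.1, 22.4 and 21.9 TPM and Orc5 (chromosome 5, 22486485 to 22550429) at 22.63, 20.81 and 21.35, again with overlapping ranges. The helicase core exceeded ORC by 3.20 ± 0.02 in median log2(TPM + 1) within libraries (SD, n = 3), or 9.21-fold, and by 2.74 with coding transcript lengths. Orc1 exceeded the median of Orc2 to Orc5 by 1.14 ± 0.10 on that scale, a difference that shrank to 0.09 with coding transcript lengths, under which Orc6 (135 TPM) and Orc3 (110.5) were the highest of the 6 and Orc4 (31.96) lay below Orc5 (45.7).

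The loading factors lay between ORC and the helicase or level with ORC. Cdt1, which escorts the helicase to origins, was at 174, 203 and 210.4 TPM in replicates 2, 3 and 4. Gmnn, geminin, the protein that blocks Cdt1 after origins fire, was at 120.7, 115.5 and 109 TPM. Cdt1 was thus above Gmnn in every library, by 1.71 ± 0.245 times in TPM, but by least in replicate 2, where Cdt1 was lowest and Gmnn highest. Cdc6, the ATPase that completes the loader, was lowest of the 3 at 74.15, 70.3 and 68.9 TPM. Orc1 exceeded Cdc6 by 1.17 ± 0.0265 times.

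Activation of the helicase rests on genes of lower level. Cdc45 (121, 127 and 137 TPM) and Gins4 (120.5 ± 2.15) were the highest of 8 and their ranges overlapped. The 4 GINS genes, whose products form 1 complex, ran from Gins4 through Gins1 (61.9 ± 5.36) and Gins2 (45.3 ± 1.96) to Gins3 (23.7 ± 1.74). The helicase core exceeded the median of Cdc45 and GINS by 3.37 ± 0.11 in log2(TPM + 1), and by 3.10 with coding transcript lengths. Mcm10, a fork factor outside the Mcm2 to Mcm7 ring, was at 48.5 ± 1.32 TPM, far from the ring's own genes. The kinase Cdc7 was at 41.1, 36.5 and 43.2 TPM, and its activating subunit Dbf4 (chromosome 5, 8396973 to 8422716) was the lowest of all 44 genes by exon length at 18.8, 18.0 and 17.6 TPM. By coding transcript length Dbf4 (47.6 TPM) stood above 6 genes, namely Gins3, Orc4, Gins2, Cdc7, Pola1 and Orc5. Cdc7 exceeded Dbf4 by 2.22 ± 0.213 times, but the order turned with coding transcript lengths, under which Dbf4 was 1.23 times Cdc7. The deposited exon length of Dbf4 is 8728 bases, against 2402 in its longest coding transcript.

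The sliding clamp stood apart from its loader. Pcna (chromosome 2, 132249162 to 132253314) was at 578, 549 and 555 TPM, below only Mcm3, Mcm5, Mcm6 and Mcm4 among the 44 genes, and below only Mcm3 and Mcm5 by coding transcript length. Its annotated copy Pcna-ps2 was at 8.15, 5.27 and 5.53 TPM and Pcna-ps1 had no fragment in any library, so fragments shared by near-identical copies may be missing from Pcna. Of the loader, Rfc4 was at 114 ± 10.3 TPM, the large subunit Rfc1 at 103 ± 3.93, Rfc2 at 66.0 ± 0.711 and Rfc5 at 56.8 ± 1.56. Rfc3 was lowest by exon length at 49.99, 47.5 and 51.5 TPM, whereas by coding transcript length it stood at 98.3 TPM, beside Rfc4 (99.0), and Rfc2 was lowest (60.2). Rfc1 exceeded the median of Rfc2 to Rfc5 by 0.74 ± 0.07 in log2(TPM + 1), and by 0.22 with coding transcript lengths.

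Among the 8 polymerase genes, Pold2 and Pold1 of delta, the lagging-strand enzyme, were the most abundant. The accessory subunit Pold2 was at 270.0, 307 and 315 TPM and the catalytic subunit Pold1 at 239, 263 and 284 TPM. The delta subunits Pold3 (80.05 ± 5.03 TPM) and Pold4 (56.0 ± 1.76), counted among the other replication genes, were lower. The epsilon subunits Pole4 (167.9 ± 8.51 TPM) and Pole3 (95.7 ± 5.40) were counted there too. Pold2 exceeded Pold1 by 1.14 ± 0.0301 times, though the ranges overlapped across libraries, and Pold1 was 1.08 times Pold2 with coding transcript lengths. Within the leading-strand polymerase epsilon, Pole2 (105.5, 91.95 and 92.7 TPM) exceeded the catalytic Pole (54.6, 49.6 and 56.8) by 1.81 ± 0.154 times, or 1.15 times with coding transcript lengths.

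Polymerase alpha with primase, which starts each new strand, had its B subunit high and its catalytic chain low. Pola2 was at 161, 166 and 178 TPM and Pola1 at 38.4, 36.04 and 36.7, a ratio of 4.55 ± 0.331, or 3.28 with coding transcript lengths. The primase catalytic subunit Prim1 was at 75.98, 70.7 and 74.1 TPM. Prim2, the large primase subunit, was lowest of the 8 by exon length at 31.0, 26.4 and 28.8 TPM, but by coding transcript length (62.4 TPM) it stood above Pola1 (44.1) and Pole (60.4). Prim1 exceeded Prim2 by 2.57 ± 0.116 times.

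Single-strand binding protein RPA is a trimer. Its large subunit Rpa1 was at 165, 159 and 161 TPM and Rpa2 at 156 ± 0.816, with the lowest coefficient of variation in TPM among the 44 genes. Rpa3, the small subunit, was at 78.5, 68.9 and 61.4 TPM, and Rpa1 exceeded it by 2.34 ± 0.26 times, or 1.52 with coding transcript lengths. The genes that finish lagging-strand fragments were both abundant: the flap nuclease Fen1 was at 256, 267 and 278 TPM and the ligase Lig1 at 208, 215 and 229. Fen1 exceeded Lig1 by 1.23 ± 0.0137 times, while Lig1 was 1.07 times Fen1 with coding transcript lengths. Chromatin assembly factor 1 places histones behind the fork. Its large subunit Chaf1a was at 166.5, 168 and 182 TPM and Chaf1b at 41.5, 40.7 and 44.3, a ratio of 4.08 ± 0.0624 that turned to 1.07 in favour of Chaf1b with coding transcript lengths. For Chaf1a the deposited exon length is 3308 bases and the longest coding transcript 5535, and for Chaf1b 5001 and 1922. The 5535 bases come from a later annotation (GENCODE M21) than the counted exons (M13) and exceed them. Some of these bases could thus receive no counts, which lowers the coding-length value of Chaf1a, and the turn of this pair rests on that value.

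All 10 pairs kept their direction in 3 of 3 libraries. Each exact two-sided sign-flip permutation test gave p = 0.25 (0.25 after adjustment over 10 pairs), the smallest that 3 libraries allow, so none could pass 0.05. The pairs Cdc7 and Dbf4, Pold1 and Pold2, and Fen1 and Lig1 turned with the length used, and their order is not settled by these counts. Chaf1a and Chaf1b also turned, but through a coding transcript length of Chaf1a that exceeds its counted exons. Their order under matched annotations was not tested.

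**Figure D3:**
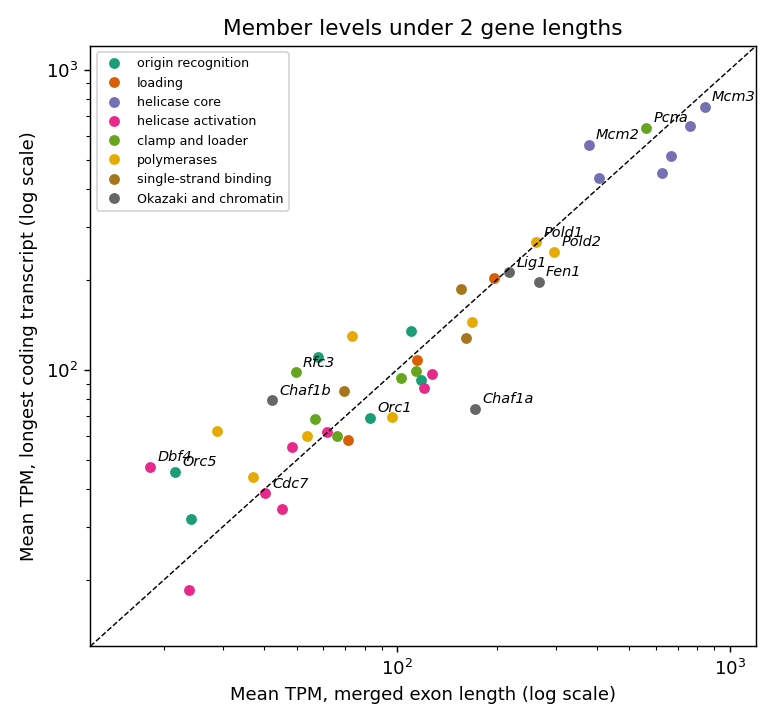
Mean TPM of the 44 genes over 3 libraries with the deposited merged exon length (x, log axis) and with the longest coding transcript (y, log axis), coloured by role; the dashed line marks equality. Chaf1a lies at 172 on the x axis and 74.3 on the y axis and Dbf4 at 18.2 and 47.6, whereas the helicase core and Pcna stay at the top right. The coding transcript length of Chaf1a exceeds its counted exons, which lowers its y value.

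Other genes of S phase were also expressed, and mitotic genes were lower. Of 32 other replication genes, 31 reached 10 TPM in every library (34.8% of protein-coding genes did), with a median of 60.1 TPM. Uhrf1 (469 ± 20.4 TPM), which recruits the maintenance methylase to new DNA, and Chtf8 (311 ± 18.0), of an alternative clamp loader, were highest, and Mcm9 (12.6 ± 0.857) and Dscc1 (10.9 ± 2.38), a partner of Chtf8, lowest. All 9 nucleotide supply genes reached 10 TPM (median 71.6 TPM), led by Dut (277 ± 8.62), which removes dUTP, and Rrm2 (167 ± 7.36), of ribonucleotide reductase, with Samhd1 (27.9 ± 2.73) and Tk1 (22.4 ± 1.72) lowest. These ranks are by exon length, and by coding transcript length Uhrf1 and Dut still led their lists while Ticrr (16.8) was the lowest of the other replication genes. Of 20 mitosis genes, 11 reached 10 TPM and none reached 100, with a median of 12.7 TPM. Top2a (71.2 ± 5.54), also counted among the other replication genes, and Cdc20 (47.8 ± 2.25) led them, and Nusap1 (2.05 ± 0.449) and Cenpf (1.37 ± 0.333) were lowest. In median log2(TPM + 1), the 44 genes exceeded the mitosis genes by 3.00 ± 0.03 (7.98-fold) and the other replication genes by 0.82 ± 0.08 (1.76-fold) within libraries.

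**Figure D4:**
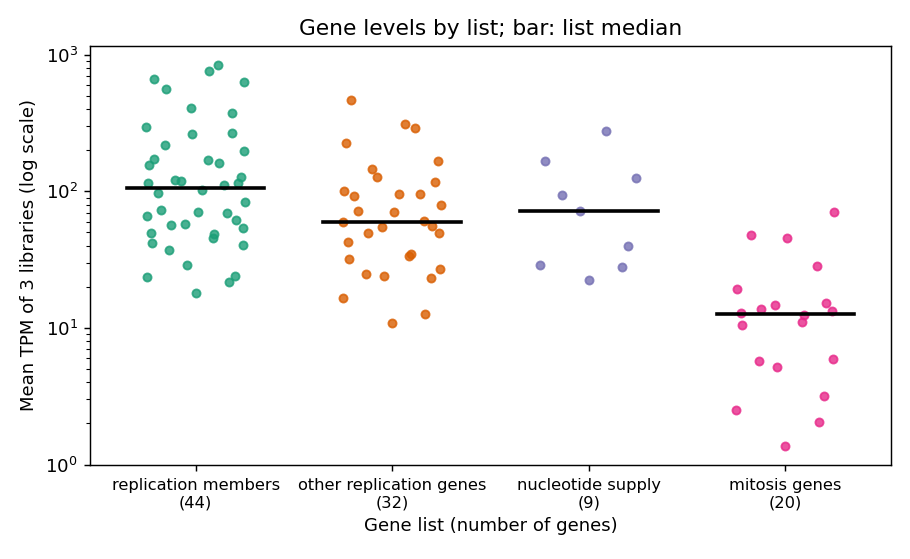
Mean TPM over 3 libraries (log axis) of each gene in the 44 replication genes and 3 other lists; each point is a gene and the bar the list median. The medians are 107, 60.1, 71.6 and 12.7 TPM from left to right, and no mitosis gene reaches 100 TPM.

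Between libraries the replication genes differed by small ratios. The highest library was at a median of 1.09 times the lowest in CPM, against 1.13 over 7743 protein-coding genes at a mean of 10 TPM or more. Their median coefficient of variation was 4.42%, against 6.18% over the same 7743 genes. Those genes had a lower median level (47.3 TPM against 107), and the part of level in these differences was not tested. Counts were tested for equal rates in the 3 libraries (chi-square) over all 13688 genes with 30 or more fragments in all. Calls needed an adjusted p under 0.05 together with a CPM in the highest library at least 2 times that in the lowest. None of the 44 was called, against 11.0% of all genes tested and 0.129% of protein-coding genes at a mean of 10 TPM or more. With 44 genes, none called cannot be told apart from the latter share. Without the ratio, 33 of 44 had an adjusted p under 0.05, against 70.5% of all genes tested. Among the 7743 protein-coding genes at a mean of 10 TPM or more, 6323 did. With the highest library at least 25% above the lowest, 2 of 44 were called, against 27.5% of all genes tested and 11.1% of protein-coding genes at a mean of 10 TPM or more. These were Orc4 (Benjamini-Hochberg adjusted chi-square p = 4.95e-21) and Rpa3 (4.86e-09), both highest in replicate 2 and lowest in replicate 4. Leaving out replicate 2 or replicate 4 left 0 of the 44 called at 25%, and leaving out replicate 3 left 2. Such a test treats each fragment as an independent draw and speaks of these 3 libraries alone.

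In replicate 2 some role groups leaned to one side and others were mixed. The deviation of a library is its log2(CPM + 0.5) minus the mean of the other 2 libraries. In replicate 2 the 6 ORC genes were each at their highest of the 3 libraries, with a median deviation of 0.09. Of these, Orc1 and Orc5 were not told apart from counting error (Benjamini-Hochberg adjusted chi-square p = 0.572 and 0.249). Fen1, Lig1, Chaf1a and Chaf1b were each at their lowest there, with a median of -0.11. Of the 6 helicase core genes, 4 were lowest and 2 highest in replicate 2, with a median of -0.07. The 8 polymerase genes were mixed, with 4 highest and 3 lowest in replicate 2, as were the 8 of helicase activation (2 and 3). Of all 44 genes, 20 were highest and 17 lowest in that library, against 4740 and 5376 of 13688 genes tested. Cdt1 (-0.28), Pold2 (-0.23) and Pold1 (-0.22) were lowest of all in replicate 2, and Orc4 (0.31) and Rpa3 (0.24) highest. Over all 44 genes the median deviations were 0.02, 0.00 and 0.00 in replicates 2, 3 and 4, beside -0.01, 0.00 and 0.01 over all genes tested.

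These deviations moved with the base composition of the transcripts. Over the 44 genes, the deviation in replicate 2 and the GC content of the longest coding transcript correlated with Pearson's r of -0.88 and Spearman's rho of -0.85. Orc4 is 36.8% GC and Rpa3 40.4%, whereas Cdt1 is 58.8%, Pold2 58.7% and Pold1 60.7%. Over 7742 protein-coding genes at a mean of 10 TPM or more the values were -0.61 and -0.76. In replicate 4 the 44 genes gave 0.75 and 0.69, beside 0.44 and 0.52 over the 7742 genes. In replicate 3 they gave 0.47 and 0.51, beside 0.40 and 0.47. Each deviation is taken against the other 2 libraries, so the values of the 3 replicates depend on each other. These are descriptions across genes that share libraries, and the part of GC content in the differences was not tested.

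**Figure D5:**
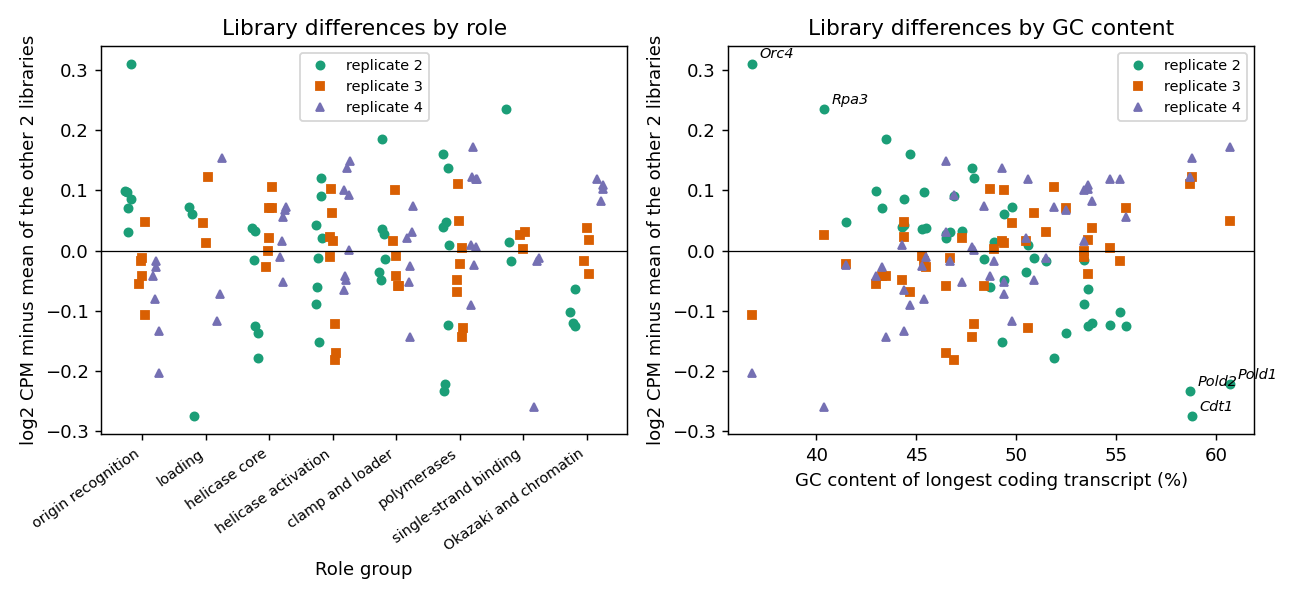
Deviation of each library from the mean of the other 2 (log2 CPM, y axis) for the 44 genes, by role group (left) and by GC content of the longest coding transcript in percent (right); symbols mark the replicate. In replicate 2 values run from 0.31 for Orc4, at 36.8% GC, to -0.28 for Cdt1, at 58.8% GC.

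Some of these genes share a start region with another gene. A protein-coding gene starting head to head within 1000 bases was found for 8 of 44 (18.2%), against 6.86% of all protein-coding genes and 12% of those at 1 TPM or more in every library; this feature was chosen after the values were seen. Mcm4 and Prkdc, the DNA-dependent protein kinase gene, start 466 bases apart and stood at 627 and 19.0 TPM. By contrast Orc3 and Rars2, a mitochondrial arginine tRNA synthetase gene 13 bases away, were at 57.8 and 57.0 TPM. Gins1 and Abhd12 (61.9 and 63.9 TPM) were also level, Orc1 (83.2) stood above Prpf38a (52.9), and Pole, Rpa1, Rpa3 and Dbf4 exceeded Pxmp2 (7.65), Smyd4 (10.2), Umad1 (4.79) and Slc25a40 (3.06). Counting used strand, so the genes of such pairs are told apart.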

How the data were processed

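RNA was sequenced in 3 libraries of 1 group. Raw fragment counts were deposited for each gene, made, per the file headers, with featureCounts 1.4.6-p4 (paired, both ends aligned, strand option 2) over exons of GENCODE M13; the build is mm10 per the labels. The assay is labelled total RNA, while the linked library protocol is named for polyA+ RNA. The header's file names contain "star2"; aligner settings are not given in the sources here. TPM were computed here as count over the deposited exon length, although the design had foreseen deposited TPM. Symbols, biotypes and coding transcript lengths came from GENCODE M21 by unversioned identifier (50376 of 50600 matched, and the other 224 held at most 0.0104% of fragments). Deposited exon lengths are those of M13, so a coding transcript can be longer than the exons counted, as for Chaf1a. Promoter sequences came from RefSeq (GRCm38.p6). Protein sequences were not used here.

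Replicates are those the labels number; the labels do not say that each came from its own animal, and SDs measure only the spread between these libraries. The sex-linked values of replicates 2 and 3 could not both come from 1 animal, so this spread is not purely technical. No pair test or quasi-likelihood contrast between groups exists with 1 group. Differences between libraries came from a chi-square test (2 degrees of freedom) on TMM library sizes (edgeR 4.0.16), with Benjamini-Hochberg adjustment over 13688 genes. It was tried only on simulated counts with counting error alone. These libraries vary beyond counting error (11.1% by the common edgeR estimate), so that trial cannot vouch for the test on them. DESeq2 1.42.0 gave alternative size factors. Gene pairs were compared by exact sign-flip permutation tests on log2((TPM + 1)/(TPM + 1)). R 4.3.3 ran edgeR; Python 3.11.15 with scipy 1.17.1, pandas 2.3.3 and numpy 2.4.6 ran the rest, and matplotlib 3.10.9 drew the plots. The members and lists were chosen with earlier results of these data known. All members are named. Values per library are given for the highest and lowest of each role, for planned pairs and for genes called at 25% or more. Other lists are given by the 2 highest and 2 lowest, with Ticrr and the polymerase subunits Pold3, Pold4, Pole3 and Pole4 added.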

Additional observations from a re-analysis of the deposited data

How the results depend on the processing

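No paired analysis was possible because all libraries belong to 1 group. Of 141 alternatives, 22 moved a value and 4 reversed a gene pair. Among the reversed pairs, Chaf1a minus Chaf1b used a coding transcript length of Chaf1a that exceeds its counted exons. Gene pairs were otherwise judged by direction alone, and 56 of 60 pair alternatives kept it; Pole minus Pole2 kept its sign but went from -0.838 to -0.197 with coding transcript lengths, and Rpa1 minus Rpa3 from 1.21 to 0.59. With coding transcript lengths in place of exon lengths, the log2(TPM + 1) differences became -0.29 for Cdc7 minus Dbf4, 0.105 for Pold1 minus Pold2, -0.1 for Fen1 minus Lig1 and -0.091 for Chaf1a minus Chaf1b. The same change gave 2.735 for the helicase core over ORC, 3.096 over Cdc45 and GINS, 0.091 for Orc1 over Orc2 to Orc5, 0.217 for Rfc1 over Rfc2 to Rfc5, 0.628 for the 44 genes over other replication genes and 3.196 over mitosis genes. Means in place of medians gave 3.348, 3.187, 0.918 and 0.589 for the first 4 of these and 3.193 over mitosis genes. A pseudocount of 5 gave 3.131 over ORC and 2.673 over mitosis genes, and one of 0.1 gave 3.083 over mitosis genes. Under total counts the median deviation of the 44 genes was 0.04, -0.009 and -0.008 in replicates 2, 3 and 4, and under DESeq2 size factors 0.026 in replicate 2. Calls among the 44 numbered 0 at a 2-fold ratio and 2 at 25%, and the latter ranged from 0 to 2 when 1 library was left out, an alternative chosen after seeing the data. Requiring a further T before the E2F core lowered its share from 58.3% to 36.1% of windows. Beyond the lengths used, the cause of these shifts was not tested. For the 11 of 44 genes with an adjusted chi-square p of 0.05 or more, the libraries were not told apart from counting error at this depth.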
